A study of Mus musculus with 46 samples.

Results

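E301 and E166 are candidate cis-regulatory elements (cCREs) from the Tfcp2l1 locus of mouse chromosome 1, and all 1365 constructs of the Upstream reporter assay that hold E301, E166 or both are described here. They belong to the 55979 constructs of the Tfcp2l1 library and the 89293 constructs of all Upstream libraries. E301 was present in 422 constructs and E166 in 947, and 4 constructs held both. The members were chosen by measured values. Over constructs in which a cCRE stands upstream of a promoter, E301 had a mean boost index of 3.94 and E166 of 3.65. This index is the log2 ratio of a construct to the median of all cCRE constructs on that promoter fragment. These were ranks 3 and 4 of the 169 cCREs with at least 3 promoters. E017 at 4.79 and E060 at 4.52 ranked above them, and E071 at 3.58 was next below. These values are a description of the choice, and no test of the effect on promoters from that position is given.

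The assay is a massively parallel reporter assay in E14TG2a, a mouse embryonic stem cell line kept in medium with LIF and kinase inhibitors. Fragments, alone or in pairs, stood upstream of a barcoded reporter gene on a plasmid, and cells were transfected by nucleofection and harvested after 24 h. There was 1 condition, with 3 biological replicates of reporter RNA (cDNA) and 2 samples of the plasmid pool (pDNA) as input, and no genotype or treatment differed. The deposited activity is the ratio of cDNA to pDNA barcodes of a construct in 1 replicate. The measured DNA is a plasmid, so distance, chromatin and neighbours in the genome are absent, and the replicates share the plasmid pool. Barcode numbers per construct are not given in the sources used here, so the depth behind each activity is unknown. A construct is written with the fragment farther from the reporter first, and + or - after a fragment is its strand as deposited. Whether this sign refers to the genome or, for promoters, to the gene is not given in the sources used here.

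A cCRE is a stretch of DNA with chromatin features of a regulatory element, and an enhancer is one that raises transcription from a promoter in cis. Classical enhancers work on either strand and from either side of a promoter. Strong enhancers can also start transcription themselves. E301 lies at chr1:120529869-120530319 (mm10) in an intergenic region, 24845 bp from Marco, which codes for a scavenger receptor of macrophages and spans chr1:120474538-120505024 on the minus strand. E301 is thus on the side of the Marco start. E166 lies at chr1:119398645-119399095, also intergenic, 16368 bp beyond the 3′ end of Inhbb. Inhbb codes for the beta B subunit of activins and inhibins and spans chr1:119415463-119422248 on the minus strand. The centres of E301 and E166 are 1131 kb apart. Tfcp2l1 itself codes for a transcription factor of naive pluripotency. Its promoter fragment P012 is 1902 kb from E301 and 771 kb from E166.

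The promoters that the results turn on are those of the neighbours Inhbb (P017) and Marco (P033), that of C1ql2 (P031), which gave the highest ratios with E166, and that of Tmem177 (P024), which in plus orientation lay below its own level when followed by E301- and above it when followed by E301+. C1ql2 codes for a secreted C1q-like protein and Tmem177 for a mitochondrial membrane protein. For each, the 250 bases before the gene's start are shown 5′ to 3′ on the gene's strand, from RefSeq sequence of GRCm38.p6. Each window lies wholly within the tested fragment. Short words of stem cell factors were searched on both strands, and found words are in capitals.

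C1ql2, chr1:120340332-120340581, plus strand: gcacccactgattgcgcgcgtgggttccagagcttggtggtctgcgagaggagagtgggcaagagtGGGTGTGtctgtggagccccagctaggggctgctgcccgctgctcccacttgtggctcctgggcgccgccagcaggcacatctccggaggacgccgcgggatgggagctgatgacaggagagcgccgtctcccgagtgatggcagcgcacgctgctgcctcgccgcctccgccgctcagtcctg

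Inhbb, chr1:119422249-119422498, minus strand: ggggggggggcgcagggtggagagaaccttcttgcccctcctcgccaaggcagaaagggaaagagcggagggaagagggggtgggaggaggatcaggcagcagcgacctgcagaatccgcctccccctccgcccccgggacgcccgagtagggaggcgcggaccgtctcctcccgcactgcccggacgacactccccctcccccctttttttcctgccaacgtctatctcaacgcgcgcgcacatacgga

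Marco, chr1:120505025-120505274, minus strand: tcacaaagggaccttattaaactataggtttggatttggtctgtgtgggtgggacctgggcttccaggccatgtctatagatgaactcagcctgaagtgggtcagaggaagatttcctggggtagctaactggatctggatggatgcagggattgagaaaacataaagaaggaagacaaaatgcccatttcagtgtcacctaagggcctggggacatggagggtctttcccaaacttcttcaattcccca

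Tmem177, chr1:119913184-119913433, minus strand: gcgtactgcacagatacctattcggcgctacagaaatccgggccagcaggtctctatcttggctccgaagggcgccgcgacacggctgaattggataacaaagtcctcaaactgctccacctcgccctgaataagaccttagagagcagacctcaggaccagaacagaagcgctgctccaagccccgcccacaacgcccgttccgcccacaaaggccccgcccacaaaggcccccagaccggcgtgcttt

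The C1ql2 window holds the KLF word GGGTGTG once, 184 bases before the start. This word is in 6.93% of the 32851 RefSeq windows of that length. The other words searched were ATGCAAAT (octamer), CATTGT (SOX), AAGGTCA (ESRRB), GGGCGTG (KLF), TTCCNGGAA (STAT3) and CCAG repeated after a gap of 6 bases (TFCP2L1), and they are in 1.60%, 10.7%, 4.08%, 7.55%, 0.913% and 2.78% of the windows. None of these letters was found in the 4 windows. The C1ql2, Inhbb and Tmem177 windows hold 20, 21 and 18 CpG dinucleotides, and the Marco window holds 0. Guanine and cytosine make up 68.8%, 68.0%, 60.0% and 47.6% of the C1ql2, Inhbb, Tmem177 and Marco windows. Sequences of E301 and E166 are not shown.

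Each cCRE drove the reporter without any promoter. E301 in plus orientation had activities of 5.11, 5.03 and 4.55 in replicates 1, 2 and 3, with a geometric mean of 4.89. In minus orientation its activities were 1.82, 1.69 and 1.73, with a geometric mean of 1.75. The replicates of both orientations did not overlap, and the plus strand was 2.80-fold higher. E166 had 3.14, 3.00 and 3.31 in plus orientation and 3.77, 3.64 and 3.95 in minus orientation, a 1.20-fold difference towards the minus strand. Among 419 oriented cCREs measured alone, whose median activity was 0.0957, E301+ ranked 5, E166- 8, E166+ 11 and E301- 19. The highest were E017- at 31.2, E017+ at 15.6, E060+ at 15.5 and E060- at 7.34. The empty reporter measured alone had a geometric mean activity of 0.179, and among the pairs it had 0.0582. Each comparison with a fragment alone below sets a pair against a single fragment. Whether this gap enters those differences was not tested.

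None of the 1365 constructs had a replicate at 0, compared with 9.73% of the library. Their median SD of log2 activity over the 3 replicates was 0.152, against 0.449 for all constructs above 0. Replicate pairs of these constructs correlated at Pearson r of 0.948 to 0.962 over log2 activities. Across the library these correlations were 0.900 to 0.904. Most activities of the members lay above the low end of the assay, but not all. Among constructs with a measured partner alone the lowest was 0.148, with E166+ first in a cCRE pair, against 0.179 for the empty reporter alone. Many partners alone lay near the low end. The promoter P023 in minus orientation alone had 0.00278, 0.0724 and 0.101, for example. Fold changes over such partners carry their error.

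Upstream of promoters, the arrangement that chose the members, nearly all weak promoters had higher activity with either cCRE than alone. E301 was measured upstream of 13 promoters in 30 combinations of strands, and activity ranged from 0.328 to 13.9 with a median of 1.27. The mean log2 difference to the promoter alone was 3.46 ± 0.41 (SD of the 3 replicate means, n = 3). E166 was measured in 51 such constructs with 20 promoters, of which 49 had a measured promoter alone. Activity in these 49 ranged from 0.266 to 18.6 with a median of 2.18, and the mean log2 difference was 3.26 ± 0.31 (SD of the 3 replicate means, n = 3). The remaining 2 held the Tmem185b promoter P019 in minus orientation, and had geometric means of 3.29 with E166+ and 1.88 with E166-. Over all 4945 constructs of this kind in the library the median log2 difference was -0.20.

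The largest difference for E166 in this arrangement was with its neighbour Inhbb. The promoter P017 in plus orientation alone had activities of 0.0138, 0.0376 and 0.0640, and with E166+ upstream it had 3.15, 2.47 and 2.77. The log2 difference was 6.43 ± 1.25 (SD of the difference, n = 3), an 86.5-fold ratio of geometric means. The construct's geometric mean of 2.78 lay below the 3.15 of E166+ alone, without a promoter. P017+ was the only Inhbb construct with E166 in first position that was measured. Next came P023 in plus orientation, near the transcript Gm28209, with activities of 1.85, 1.84 and 2.34 and a difference of 6.25 ± 1.60 (SD, n = 3). C1ql2 followed, with differences of 5.79 ± 0.64 (SD, n = 3) for P031- and 5.57 ± 0.75 (SD, n = 3) for P031+. E166 had no such ratio over the strongest promoters. The promoter P007 of Nifk, which codes for a nucleolar protein, had 14.82, 17.05 and 17.61 in plus orientation alone and 12.6, 11.6 and 12.7 with E166+ upstream, a log2 difference of -0.42 ± 0.17 (SD, n = 3). The next lowest differences were 0.12 with P010- at Clasp1, a gene for a microtubule-binding protein, and 0.38 with P007-.

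For E301 in the same arrangement the largest differences were 5.37 ± 0.90 (SD, n = 3) for E301+ with P014+ near Gli2, a gene for a transcription factor of Hedgehog signalling, then 4.77 ± 0.96 (SD, n = 3) with P015+ and 4.60 ± 0.20 (SD, n = 3) with the Tfcp2l1 promoter P012-. E301+ upstream of P012- had 4.25, 3.79 and 3.35, against 0.152, 0.156 and 0.159 for the promoter alone. The lowest differences were 0.38 with the Nifk promoter P007-, then 0.79 and 0.92 for E301+ and E301- with P022+ near Ptpn4. With its neighbour Marco, E301+ gave 1.24, 1.07 and 1.25 upstream of P033+, which alone had 0.0460, 0.0796 and 0.0674. E301- gave 0.401, 0.397 and 0.222 upstream of the same fragment. The groups do not overlap with the promoter alone in either case, which only describes the arrangement that chose E301. Over the 4 combinations of strands with Marco the log2 differences were 2.39, 3.23, 4.23 and 4.24, with SDs between 0.51 and 1.19, the lower differences with E301-, and the 0.328 of E301-P033+ was the lowest activity of the 30 constructs. All 4 lay below E301 of the same strand alone, with log2 differences between -2.05 and -2.71.

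With the Tfcp2l1 and Marco promoters E166 gave intermediate differences in this arrangement. P011 covers the annotated start of Tfcp2l1 and P012 lies just beyond it within the gene. The differences for P012 were 4.35 ± 0.47 (SD, n = 3) for E166+ with P012+, 4.45 ± 0.13 (SD, n = 3) for E166+ with P012- and 4.76 ± 0.33 (SD, n = 3) for E166- with P012-. For P011- the difference with E166+ was 4.30 ± 0.26 (SD, n = 3). For the Marco promoter the 4 combinations of strands gave 2.96 to 3.96 with SDs between 0.35 and 0.74, and activity stayed between 0.488 and 0.622. Activity upstream of promoters followed the promoter. Over the constructs with a measured promoter alone, log2 activity correlated with the log2 activity of the promoter alone at Pearson r of 0.775 for E301 (n = 30) and 0.801 for E166 (n = 49). The constructs share promoters, strands and the cCRE, so these values are descriptive.

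With the order turned, the promoter first and the cCRE second, next to the reporter, most constructs were again above the promoter alone. Here limma was fitted to all 4720 constructs of this kind (adjusted p by Benjamini-Hochberg, threshold 0.05, used in all tests below), and 23.3% were called higher and 42.6% lower than the promoter alone. Of the 20 constructs with E301, 17 were higher and 3 lower. Of the 46 with E166, 37 were higher, 6 lower and 3 passed in neither direction. The median log2 differences were 4.27 for E301 and 4.62 for E166, against -0.85 over all constructs of this kind. The 37 higher calls with E166 covered all 37 constructs whose promoter alone was below 1. With E301 it was all 16 of these and 1 of the 4 above 1.

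C1ql2 gave the highest ratios to E166 in second position. P031- alone had 0.0241, 0.0434 and 0.0586, and P031-E166+ had 5.36, 4.16 and 5.75. The log2 difference was 7.00 with a standard error of 0.366 and a limma adjusted p of 1.85e-05. P031+E166+ and P031+E166- followed with log2 differences of 6.77 and 6.70. The Inhbb promoter came close. P017- had 0.0297, 0.0832 and 0.0816 alone and 5.75, 5.08 and 5.73 when followed by E166-, a log2 difference of 6.56 with a standard error of 0.434 and a limma adjusted p of 3.62e-05. For Marco, P033+ followed by E166+ and E166- differed by 5.82 and 5.73 from P033+ alone, with a limma adjusted p of 1.34e-05 for both. These promoters alone (geometric means 0.0378 to 0.0627) lay near or below the empty reporter among the pairs (0.0582). The ratios thus rest on low baselines. By activity P014-E166- was highest, at 7.65. Against E166 of the same strand alone, P014-E166-, P017-E166- and P031-E166+ were higher (limma adjusted p = 0.00386, 0.0486 and 0.037). P031+E166+, P031+E166- and P031-E166- did not pass (limma adjusted p = 0.264, 0.829 and 0.763).

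The Tfcp2l1 promoter was also exceeded with both cCREs in second position. P012+ had 0.104, 0.135 and 0.111 alone, and 3.38, 2.83 and 3.29 when followed by E301+. This was a log2 difference of 4.77 with a standard error of 0.198 and a limma adjusted p of 1.06e-05. With E301- the difference was 2.80, and with E166 the 4 combinations of strands of P012 gave 3.43 to 4.54. P011-E166- had 1.87, 1.80 and 2.08, a log2 difference of 5.12. The highest ratios with E301 were those of P016+, P015- and P013-. P016 and P015 are promoter fragments near the predicted gene Gm33388, and P013 lies at a start of Gli2. With E301+ second these had log2 differences of 6.06, 5.95 and 5.49. P016+E301+ had 5.74, 6.65 and 5.68, and all 3 replicates lie above the activity of E301+ alone. This excess over E301+ alone was 0.30 on the log2 scale and did not pass the test (limma adjusted p = 0.231).

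The lower calls all involved promoters that were strong alone. P022+, near Ptpn4, a gene for a tyrosine phosphatase, had 6.74, 7.28 and 7.93 alone. Followed by E301- it had 0.192, 0.817 and 0.563, a log2 difference of -4.04 with a standard error of 0.538 and a limma adjusted p of 0.000782. Followed by E301+ it had 2.96, 3.79 and 2.18, a difference of -1.33. The Tmem177 promoter P024+ had 2.36, 2.57 and 3.26 alone and 0.810, 0.837 and 0.762 when followed by E301-, a log2 difference of -1.75 (limma adjusted p = 0.00038). The same promoter followed by E301+ had 4.31, 4.96 and 5.64 and was higher by 0.87 (limma adjusted p = 0.0131). The same promoter thus lay below its own level with one strand of E301 and above it with the other. Without a promoter, E301+ had 4.89 and E301- 1.75, on either side of the 2.71 of P024+ alone. How far these levels account for the change of direction was not tested.

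For E166 the lower calls were P007+E166- (Nifk), P019+E166+ and P019+E166- (Tmem185b, a gene for a transmembrane protein), P022+E166+ and P022+E166-, and P018+E166- (Ralb, a gene for a small GTPase). The call of P018+E166- (limma adjusted p = 0.045) was lost with the replicate as a block (limma adjusted p = 0.0655) and with each replicate left out in turn, and that of P019+E166- was lost without replicate 2 or 3. P007+E166- had 3.81, 3.80 and 4.72, against 14.82, 17.05 and 17.61 for P007+ alone, a log2 difference of -2.01 with a standard error of 0.194 and a limma adjusted p of 0.000172. P019+E166+ had 2.18, 2.63 and 2.09, a difference of -1.92. P022+E166+ had 2.84, 2.64 and 3.05, a difference of -1.36. P024+E166+ and P024+E166- had differences of -0.50 and -0.01 that did not pass. The lower calls depended on the baseline. Against the median construct with the same promoter first and any cCRE second, 19 of 20 constructs with E301 and 46 of 46 with E166 were called higher, and limma called 0 lower with either (0 also at an unadjusted p under 0.05).

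In second position the activities gathered around the level of the cCRE alone. Constructs with E301+ second had a median activity of 3.99 (range 2.20 to 6.01, 9 constructs) and those with E301- second 1.21 (0.445 to 1.87, 11 constructs). The medians were 2.84 for E166+ (1.39 to 5.04, 19 constructs) and 3.92 for E166- (1.73 to 7.65, 27 constructs). The alone values of the same oriented cCREs are 4.89, 1.75, 3.15 and 3.79. Tested against the cCRE alone, a comparison added after the values had been seen, 8 of the 20 constructs with E301 were lower (7, 4 and 5 without replicate 1, 2 and 3), and limma called 0 higher (0 also at an unadjusted p under 0.05). Across 4684 such constructs of the library 32.1% were higher and 18.8% lower. Of the 46 with E166, 8 were higher and 10 lower, and with the replicate as a block 3 were higher and 8 lower. Without replicate 1, 2 and 3 there were 7, 2 and 6 calls in all. Log2 activity correlated with that of the promoter alone at Pearson r of -0.191 for E301 (n = 20) and -0.008 for E166 (n = 46), as a description over constructs that share promoters.

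The promoter pairs measured in both orders are described without a test because one order chose the members. Of the 9 E301 pairs with a promoter below 0.5 alone, all had the higher activity with E301 second, with a median log2 difference (first minus second) of -1.46. Of the 24 such pairs with E166, 18 had the higher activity with E166 second and 6 with E166 first, with a median of -1.27. The 6 exceptions held the Tfcp2l1 promoter P012 (3 pairs), the Tmem177 promoter P024- (2 pairs) and P021-, near Epb41l5. With promoters of 0.5 or above, both pairs of E301 and all 5 of E166 were higher with the cCRE first. These pairs hold few promoters: both E301 pairs and 4 of the 5 E166 pairs hold P022, and the remaining one holds P024+. The widest gap was P022+ with E301-, at 13.9 with E301 first and 0.445 with E301 second, a 31.2-fold ratio.

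Paired with other cCREs, both members gave higher activity than the partner alone in nearly all constructs. In first position, away from the reporter, E301 had 183 of 190 constructs called higher, and limma called 0 lower (0 also at an unadjusted p under 0.05). E166 had 422 of 442 higher and 4 lower. Over all 39844 contrasts of this kind in the library 34.4% were higher and 17.9% lower. In second position E301 had 172 of 181 higher and 5 lower, and E166 388 of 400 higher and 6 lower, against 35.0% and 24.8% of 40071 contrasts in the library. The partners were 119 cCREs for E301 and 200 for E166. With the member second, the median partner alone had 0.107 for E301 and 0.105 for E166, far below either member alone. A higher call thus does not separate an effect on the partner from the member's own activity. E017 and E060 in second position had 444 of 444 and 525 of 530 called higher. Each plasmid of 2 cCREs gives a contrast for each fragment, so the contrasts of the library are not independent.

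The median log2 differences were 4.31 for E301 first, 4.56 for E301 second, 4.06 for E166 first and 5.19 for E166 second. Over all contrasts the medians were 0.12 for the first and -0.0049 for the second position. The mean log2 difference over both positions was 4.04 ± 0.24 (SD of the 3 replicate means, n = 3) for E301 and 4.18 ± 0.23 (SD, n = 3) for E166. The differences depended on the partner's own activity. With partners below 0.1 alone, E166 in first position had a median 24.8-fold ratio, and in second position 66.1-fold. With partners of 1 or above these ratios were 1.92-fold and 2.28-fold. For E301 they were 31.8-fold and 46.0-fold below 0.1, and 2.26-fold and 1.57-fold at 1 or above.

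Absolute activity followed the partner in first position more than in second. With E301 first, the median activity was 1.84 with partners below 0.1, 3.55 with partners between 0.1 and 1, and 9.19 with partners of 1 or above. With E301 second these medians were 2.54, 3.14 and 4.54. With E166 first they were 1.30, 2.56 and 4.88, and with E166 second 3.94, 4.50 and 4.50. Pearson r between log2 activity and the log2 activity of the partner alone was 0.655 (n = 190) and 0.605 (n = 442) with E301 and E166 first. It was 0.303 (n = 181) and 0.216 (n = 400) with them second. These values describe constructs that share partners, and they carry no test. E017 showed 0.434 (n = 312) first and -0.067 (n = 444) second, and its median activity was 3.33 first and 25.9 second.

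The highest ratio with E301 first was that of E301-E215+. It had 9.55, 11.1 and 7.74, against 0.0836, 0.122 and 0.126 for E215+ alone, a log2 difference of 6.43 with a standard error of 0.261 and a limma adjusted p of 1.66e-05. This construct reached 504% of the sum of the activities of both fragments alone. E301+E028- and E301+E016+ followed with log2 differences of 6.30 and 6.23. For E166 first, the highest were E166+E090- at 6.89, E166+E263+ at 6.42 and E166+E286- at 6.34. E166+E263+ had 5.73, 4.82 and 5.37, against 0.0531, 0.0672 and 0.0667 for the partner. E215 is intergenic near Gm29658 and E263 near Steap3, a gene for a metalloreductase, while E090 lies within Gli2.

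In second position the highest ratios with E166 were E191-E166- at 7.56, E053-E166- at 7.37 and E067-E166- at 7.26. E191-E166- had 5.78, 7.36 and 6.87, against 0.0225, 0.0444 and 0.0440 for E191- alone (standard error 0.325, limma adjusted p = 1.85e-05). For E301 second they were E295+E301+ at 6.97, E046-E301+ at 6.83 and E146+E301+ at 6.79. E295 lies near Marco, as E301 does. E295+E301+ had 9.13, 7.11 and 7.81, all above the 3 activities of E301+ alone, and reached 161% of the sum of both fragments alone. The other 5 of these 6 constructs lay between 83.6% and 174% of that sum.

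The lowest differences came from the strongest partners, E017 and E060. E017, which overlaps an edge of Tsn, and E060, within Tfcp2l1, are the most active cCREs of the library when measured alone. E017-E301- had 1.84, 1.85 and 2.00, against 31.3, 29.0 and 33.5 for E017- alone. The log2 difference was -4.04, with a standard error of 0.178 and a limma adjusted p of 1.96e-05. With E301+ second the activities were 8.43, 8.46 and 7.56 and the difference was -1.94. With E166+ and E166- second the differences to E017- alone were -2.49 and -2.33. E060+ followed by E301+, E301-, E166+ or E166- had differences of -1.33, -1.85, -2.14 and -1.66, and each passed. E060- followed by E301-, E166+ or E166- had differences of -1.89, -0.91 and -1.08, which also passed. The difference of -0.60 for E060-E301+ did not pass (limma adjusted p = 0.0553).

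With the order turned and E301 in front, constructs with E017 or E060 next to the reporter were not called below E017 or E060 alone. E301+E017- had 31.2, 27.8 and 31.2 and E301-E017- had 30.4, 29.1 and 33.3, with log2 differences of -0.06 and -0.01 that did not pass. E301+E017+ had 24.2, 26.4 and 27.8, against 14.9, 15.0 and 16.9 for E017+ alone, and was higher by 0.74 (limma adjusted p = 0.0146). E301+E060- was higher than E060- alone by 0.91. With E166 in front, 3 constructs were called lower. E166-E017- had 18.0, 18.6 and 19.6, a difference of -0.74 to E017- alone (limma adjusted p = 0.014). E166+E060+ had 8.56, 7.82 and 7.35, against 16.4, 15.9 and 14.3 for E060+ alone, a difference of -0.98. E166-E060+ had a difference of -0.63 (limma adjusted p = 0.0304). E166+E017+ with 22.3, 21.0 and 23.5 lay above E017+ alone in all 3 replicates, but its difference of 0.51 had a limma adjusted p of 0.0505. The lowest ratio for E166 in first position was with E077+, near Gli2. E166+E077+ had 0.637, 0.521 and 0.638, below E077+ alone at 1.26, 1.41 and 1.57 and below E166+ alone.

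Constructs were also set against the level of E301 or E166 alone, a comparison added after the values had been seen. It sets pairs against single fragments, and the empty reporter was also lower among the pairs (0.0582) than alone (0.179). Whether that gap enters the lower calls was not tested. In first position lower calls outnumbered higher ones for E166 and for E301+, but not for E301-. With E166 first, 42 of 449 constructs were higher and 269 lower than E166 alone, with a median log2 difference of -0.86. Over all contrasts with a cCRE alone whose construct has it first, 35.0% were higher and 24.8% lower. With E166 second, 108 of 401 were higher and 34 lower, with a median of 0.19, against 34.4% and 17.9% over all contrasts with the cCRE alone second. With the replicate as a block the 108 higher calls were 69. With E301 first, 41 of 190 were higher and 75 lower (median -0.39), and with E301 second 43 of 182 were higher and 35 lower (median 0.02). These totals pool strands that differed. With E301+ first, 17 of 119 were higher and 60 lower (median -0.60). With E301- first, 24 of 71 were higher and 15 lower (median 0.28). With E301+ second, 10 of 80 were higher and 23 lower, and with E301- second 33 of 102 were higher and 12 lower. Against the median construct that holds E166 in the same strand and position, 203 of the E166 contrasts were higher and 218 lower over both positions, compared with 150 and 303 against E166 alone. That baseline is the median of the same constructs, so a near even split is set in advance and says nothing about E166. Without replicate 1, 2 and 3, E166 had 57, 5 and 27 higher calls in second position and 234, 187 and 198 lower calls in first position. The 194 calls of E301 over both positions and directions were 152, 86 and 113 in number. The median activity as a share of the sum of both fragments alone was 71.7% for E301 first, 90.7% for E301 second, 51.8% for E166 first and 108% for E166 second. It was 45.9% over all cCRE pairs. Most of those pairs join weak fragments, since the median oriented cCRE alone had 0.0957, below the empty reporter alone at 0.179. That share is thus not a like reference for pairs with a strong member.

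The 4 constructs that hold both cCREs had activities near or above each one alone. E301+E166- had 8.38, 12.04 and 9.11, which was 112% of the sum of both alone, and was higher than E166- alone by 1.36 (limma adjusted p = 0.00237) and higher than E301+ alone by 0.99 (limma adjusted p = 0.00926). E301-E166- had 7.08, 8.91 and 6.73, which was 136% of the sum, and exceeded E301- alone by 2.10 and E166- alone by 0.99. E166+E301+ had 8.60, 9.16 and 5.49, or 94.1% of the sum. It exceeded E166+ alone by 1.26 (limma adjusted p = 0.00679), while its excess of 0.63 over E301+ alone did not pass (limma adjusted p = 0.0807). E166+E301- had 4.05, 3.19 and 2.92, or 68.5% of the sum, and exceeded E301- alone by 0.94 but not E166+ alone (difference 0.09, limma adjusted p = 0.723).

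Tested directly on the same pair of fragments and strands, E166 had higher activity next to the reporter than away from it. Of 204 pairs measured in both orders, 125 were higher with E166 second and 9 with E166 first. Over all 17420 such pairs of the library, 38.7% differed in either direction. The mean log2 difference (first minus second) was -0.96 ± 0.04 (SD of the 3 replicate means, n = 3), so activity was 1.94-fold higher with E166 second on average. For E301, 22 of 70 pairs were higher with E301 second and 14 with E301 first, and the mean difference was -0.19 ± 0.02 (SD, n = 3). Its strands differed. Of 40 pairs with E301+, 16 were higher with it second and 6 with it first, with a mean of -0.46 ± 0.01 (SD, n = 3). Of 30 pairs with E301-, 6 were higher with it second and 8 with it first, with a mean of 0.18 ± 0.04 (SD, n = 3). The counts fell with any replicate left out. E166 had 85, 54 and 75 calls in all without replicate 1, 2 and 3, and E301 had 16, 7 and 14, compared with 134 and 36.

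The order preference changed with the partner's strength. With partners below 1 alone, the mean log2 difference was -1.08 ± 0.05 (SD, n = 3) for E166 over 182 pairs and -0.37 ± 0.02 (SD, n = 3) for E301 over 64 pairs. For E301+ it was -0.62 ± 0.004 (SD, n = 3) over 37 pairs, and for E301- it was -0.02 ± 0.05 (SD, n = 3) over 27 pairs. With partners of 1 or above the mean was 0.05 ± 0.04 (SD, n = 3) for E166 over 22 pairs and 1.77 ± 0.06 (SD, n = 3) for E301 over 6 pairs, all 6 of them higher with E301 first. These 6 pairs hold only 3 partners, and most of them hold E017 or E060. The extreme pairs were E301- with E017-, higher with E301 first by 4.03 (limma adjusted p = 0.000268), and E166- with E053-, at -3.31, or 9.95-fold higher with E166 second (limma adjusted p = 0.00547). The E166-E053- construct had 0.882, 0.649 and 0.224 and E053-E166- had 5.65, 4.63 and 4.83. A partner that ran the other way for both was E209+, weak alone at 0.299. E301+E209+ had 7.63, 7.85 and 6.19 and E209+E301+ 1.98, 1.95 and 2.28, and E166+E209+ had 5.17, 5.74 and 5.40 and E209+E166+ 1.09, 1.33 and 1.21.

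E301 was the strand-dependent member. Over all 24323 strand contrasts of the library 30.3% differed in either direction, and of the 120 with E301 66 did. With the same partner, partner strand and position, its plus strand was higher in 43 of 58 cCRE pairs with E301 second, in 16 of 54 with E301 first (9 with the replicate as a block), and in 7 of 8 constructs with a promoter first. Limma called 0 of these 120 contrasts higher on the minus strand (0 also at an unadjusted p under 0.05). In the library 33.3%, 25.5% and 37.9% of contrasts of these 3 kinds differed in either direction. The count with E301 first was thus near the library's share, while both counts with E301 second were above it. The mean log2 differences (plus minus minus) were 1.19 ± 0.003 (SD of the 3 replicate means, n = 3) with E301 second and 0.59 ± 0.06 (SD, n = 3) with E301 first in cCRE pairs, and 1.79 ± 0.11 (SD, n = 3) after a promoter. The difference of E301 alone was 1.48 ± 0.09 (SD, n = 3). Upstream of promoters, described without a test, 10 of 11 pairs were higher on the plus strand, with a mean of 0.77 ± 0.17 (SD, n = 3). Without replicate 1, 2 or 3, 26, 7 and 9 of the 120 contrasts passed instead of 66, all of them higher on the plus strand.

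The strand of E301 mattered most behind P022+ and P024+ and with E209- in front. P022+E301+ and P022+E301- differed by 2.71 on the log2 scale with a standard error of 0.584 (limma adjusted p = 0.02). P024+E301+ and P024+E301- differed by 2.62, or 6.16-fold (limma adjusted p = 0.00133). With E301 first and E017- next to the reporter, the strand of E301 gave a difference of -0.04 that did not pass (limma adjusted p = 0.889). With E017- first and E301 next to the reporter it gave 2.10. Whether these values differ from each other was not tested.

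E166 differed little between its strands. With E166 first, 1 of 101 contrasts was higher on the plus strand and 2 on the minus strand, and the mean log2 difference was -0.02 ± 0.02 (SD of the 3 replicate means, n = 3). With E166 second, 1 of 122 cCRE pairs was higher on the plus and 15 on the minus strand, and 3 of 19 promoter constructs were higher on the minus strand. The mean differences there were -0.29 ± 0.01 (SD, n = 3) and -0.36 ± 0.04 (SD, n = 3), so the minus strand was 1.22-fold and 1.29-fold higher. E166 alone differed by -0.27 ± 0.01 (SD, n = 3). With the replicate as a block, 7 of all 242 contrasts passed instead of 22, all 7 towards the minus strand. Without replicate 1, 2 of the contrasts passed, and limma called 0 in either direction without replicate 2 or 3. At an unadjusted p under 0.05, 10 contrasts with E166 second were higher on the minus strand without replicate 2 and 13 without replicate 3, and 0 on the plus strand. With E166 first, 1 and 2 were higher on the minus strand and 0 and 1 on the plus strand. The largest single difference was that behind E186+, at -1.36 (limma adjusted p = 0.0166).

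E301 and E166 were compared with the same partner, strands and position. Next to the reporter, E301+ exceeded E166+ by 0.36 ± 0.03 (SD over replicates, n = 3) on the log2 scale over 67 shared cCRE settings and was higher in 54. E301- minus E166- was -1.19 ± 0.04 (SD over replicates, n = 3) over 101 settings, and E301- was the higher in 2, so E166- was 2.29-fold higher on average. After a promoter E301- minus E166- was -1.76 ± 0.04 (SD, n = 3) over 11 settings, E301 being the lower in all 11, while E301+ minus E166+ was 0.28 ± 0.09 (SD, n = 3) over 9 settings, with E301 higher in 5. In first position E301+ exceeded E166+ by 0.65 ± 0.09 (SD, n = 3) over 118 settings, higher in 108, while E301- minus E166- was 0.08 ± 0.07 (SD, n = 3) over 43. The exact permutation test over 3 against 3 replicate means gave 0.1, the smallest p it allows, for all of these but the last, which gave 0.3. This design cannot pass 0.05.

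Distance in the genome between a member and its partner went with little of the difference to the partner alone. The partners of E301 lay 23.2 to 2526 kb away and those of E166 6.21 to 1547 kb. Spearman's rho between distance and log2 difference was 0.12 (n = 30) and -0.04 (n = 49) upstream of promoters, and 0.28 (n = 20) and -0.08 (n = 46) with the promoter first, for E301 and E166. In cCRE pairs it was 0.03 (n = 190) and -0.01 (n = 181) for E301 first and second, and -0.04 (n = 442) and -0.13 (n = 400) for E166. These are descriptions over constructs that share partners. The nearest tested promoters were Inhbb for E166, 23.5 kb away, and Marco for E301, 24.9 kb away.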

How the data were processed

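Activities were taken as the authors deposited them, as the ratio of cDNA to pDNA barcodes for each construct in each biological replicate, not log-transformed, per the file headers and the labels. Bowtie2 and the build mm10 are named in the submitters' processing notes. Barcode filters, barcode numbers and the scaling that sets an activity of 1 are not given in the sources used here, so no precision can be derived from depth. Samples were grouped by title, and only the 3 cDNA replicates of the Tfcp2l1 Upstream mix were used. Fragments were taken as the table places them, with gene names and promoter windows from RefSeq tables of GRCm38.p6.

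Tests used constructs above 0 in all 3 replicates, and log2 activities were used without a pseudocount. The members and lists were chosen with earlier results of these data known. The arrangement with a cCRE upstream of a promoter chose the members and is described only. For a promoter followed by a cCRE, for cCRE pairs, for strand and for order, limma 3.58.1 in R 4.3.3 (lmFit and eBayes) compared 3 replicate values with 3 over all contrasts of that kind in the library, two-sided, with Benjamini-Hochberg adjustment at 0.05. It was tested on simulated data first. E301 and E166 were compared by exact permutation. Other computations used Python 3.11.15, numpy 2.4.6, pandas 2.3.3 and scipy 1.17.1. The SD of a difference is over the 3 replicates, which share a plasmid pool, so p-values leave out differences between barcoded plasmids of one construct.

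Same-numbered values of a construct and its baseline come from the same transfection, so the replicate number pairs them by design. Correlations of their deviations from the group means were 0.044 to 0.129 for a promoter followed by a cCRE, 0.064 to 0.137 for cCRE pairs, 0.074 to 0.145 for strand and 0.061 to 0.129 for order. Alternatives were the replicate block, a pseudocount of 0.01 with constructs at 0 kept, a trended robust prior, each replicate left out, replicates centred on their median, contrasts with both constructs under 0.1 left out, and the median construct as baseline. Fragments named are E301, E166, E017, E060, the Tfcp2l1, Inhbb, Marco and C1ql2 promoters, and per member and order the 3 highest and 3 lowest differences to the partner alone (for cCRE partners, among calls of one sign in all 3 replicates). E186, E209, P018, P021 and, with E166 second, P014 were singled out after their values were seen. Partners were split at 0.1, 0.5 and 1 after the values were seen.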

Additional observations from a re-analysis of the deposited data

How the results depend on the processing

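Calls against the partner alone were stable in number. For E301 they were 18 to 20 with a promoter first and 345 to 365 in cCRE pairs over all alternatives, and for E166 41 to 46 and 793 to 835. The split moved with the baseline: with the median construct in place of the promoter alone, 17 higher and 3 lower became 19 and 0 for E301, and 37 and 6 became 46 and 0 for E166. Counts of strand and order calls moved more. With the replicate block there were 7 strand calls for E166 in place of 22, and 11 calls against E166 alone in place of 18 with a promoter first. With a trended robust prior these counts were 79 and 33, and with contrasts of low activity left out the strand calls of E166 were 43. Other totals moved by at most 1.5 times with the block, but within them the 16 strand calls of E301 in first position became 9, and the 108 higher calls with E166 second against E166 alone became 69. Leaving out 1 replicate gave 7 to 26 strand calls and 7 to 16 order calls for E301, and 0 to 2 and 54 to 85 for E166. Against the cCRE alone, leaving out 1 replicate gave 4 to 7 calls with a promoter first and 86 to 152 in cCRE pairs for E301, and 2 to 7 and 218 to 348 for E166. Each contrast then held fewer values, and the cause of the smaller counts was not tested. As a median over partners, the log2 difference with a promoter first was 4.21 for E301 and 4.67 for E166, against means of 3.18 and 3.84, and in cCRE pairs with E301 it was 4.41 against 4.04. Of the 142 alternative values, 113 kept their direction and stayed within the bounds set for a change, and 0 reversed. The depth behind the activities is unknown, and ratios over partners near the low end of the assay carry the error of the partner.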

Other observations

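The empty reporter was deposited with more than 1 value. As a fragment alone it had activities of 0.161, 0.186 and 0.190 in replicates 1, 2 and 3, and among the pairs 0.0460, 0.0658 and 0.0654. The geometric means are 0.179 and 0.0582. Of the partners used as baselines, those with a geometric mean under 0.1 made up 89 of 190 with E301 first and 217 of 442 with E166 first in cCRE pairs. Against the median construct with the same partner in place of the partner alone, 360 of the E301 and 824 of the E166 contrasts in cCRE pairs were called higher and 2 and 3 lower. The corresponding counts against the partner alone were 355 and 810 higher and 5 and 10 lower.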
